A study of Mus musculus with 17 samples.

Results

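The Hox genes of the mouse were followed through an amplification control for single-cell transcriptomics. The members were all genes whose single symbol in the annotation of the array is Hoxa, Hoxb, Hoxc or Hoxd with a number. They comprised 33 genes on 48 probe sets, of 18193 genes and 45037 probe sets analysed, with 9 genes from the Hoxa cluster, 9 from Hoxb, 7 from Hoxc and 8 from Hoxd. Hoxb8 and Hoxd4 were on probe sets shared with a neighbour and were left out of the members. Of the 33 genes, 22 had 1 probe set, 8 had 2, Hoxc5 and Hoxc6 had 3, and Hoxa3 had 4.

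The mRNA came from the cortex of adult female C57BL/6 mouse brain, with no treatment. It was diluted and amplified by repeated in vitro transcription (aRNA amplification), and 17 Affymetrix mouse genome arrays were hybridized. With 4 rounds of amplification, 0.1, 1 and 10 pg had 3 arrays apiece. With 2 rounds, 0.1 pg and 1 pg had 3 arrays apiece and 10 pg had 1, and 5 µg of unamplified mRNA, called bulk, was put on 1 array. The arrays of a group were separate amplifications of the same mRNA, so p-values measure how amplifications varied and say nothing of animals. Bulk and the 10 pg input amplified over 2 rounds, with 1 array each, were assumed to vary like the other groups.

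Hox genes encode homeodomain transcription factors that give cells their position along the body axis. They lie in clusters in which the order of the genes follows the order of their domains from the hindbrain to the tail, and Polycomb complexes keep a cluster silent where its genes are not used. In the central nervous system they are known for patterning the hindbrain and spinal cord, whereas the forebrain, including the cortex, forms in front of their domains. They were therefore taken as developmental genes expected to be low in adult cortex.

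A level is given here in log2 units above or below the array's own median, after scaling each array to the same range. Background was not measured separately on these arrays, and probe sets differ in how strongly they bind, so a high rank describes signal and not abundance. The 10 pg array after 2 rounds stood apart, with 872 distinct values against 3771 in bulk, and the arrays of 0.1 pg after 2 rounds had 1258, 1577 and 2102. As a description of the tissue, each gene was taken by its highest-mean probe set. The 10 pan-neuronal markers had a median percentile of 94.6 in bulk and the 5 measured excitatory neuron markers one of 89.1. In bulk it was 91.4 for astrocyte, 82.4 for inhibitory neuron, 78.4 for vascular and 77.7 for oligodendrocyte markers. For microglia it was 45.4, for blood cells 38.5 and for choroid plexus 37.8. Of the 19 measured forebrain transcription factors, 17 were above the bulk median, while Fezf2 was at 7.39 and Lhx2 at 6.71. The 11 trunk mesenchyme and limb genes had a median percentile of 59.6, and these ranks do not test the cortical label. The 11 measured markers of hindbrain and spinal cord had a median percentile of 45.6 in bulk.

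As a group the Hox probe sets were not at the bottom of the arrays. Their median percentile among all probe sets was 66.9 ± 1.86 after 4 rounds from 0.1 pg, 60.1 ± 1.71 from 1 pg and 56.2 ± 9.76 from 10 pg. After 2 rounds it was 60.0 ± 4.67 from 0.1 pg and 60.4 ± 6.89 from 1 pg (SD, n = 3 each), with 44.8 on the single array from 10 pg, against 44.0 in bulk. The 44.8 is the rank of a block of tied values that Hoxa9 1455626_at, Hoxb3 1456229_at, Hoxc5 1456301_at and Hoxd12 share. Its nearness to bulk is therefore not read further. The array of 10 pg after 2 rounds and bulk had 26 of the 48 Hox probe sets below the array median, a number that only replicate 1 of 10 pg after 4 rounds matched, and the other 14 arrays had between 14 and 22. The expectation of low levels thus held for some probe sets and not for others.

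**Figure D1:**
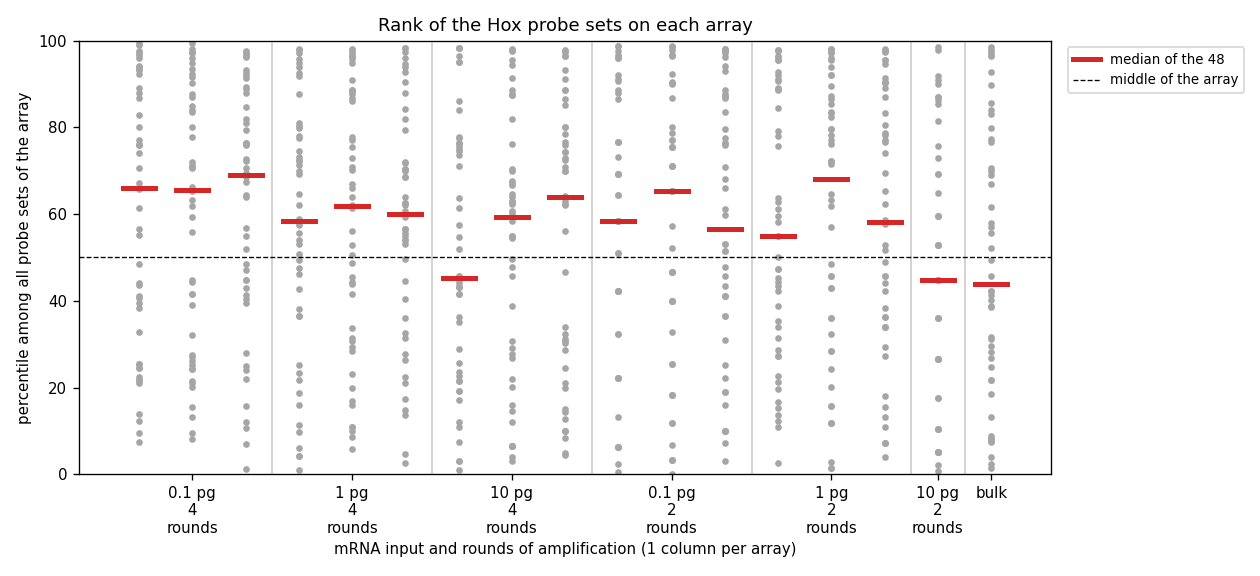
Percentile of each of the 48 Hox probe sets (grey points) among all 45037 probe sets of the array, with 1 column per array; red lines are the medians over the 48 and the dashed line is the middle of the array. The medians lie between 65.6 and 69.0 on the 3 arrays of 0.1 pg after 4 rounds, against 44.0 in bulk.

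For scale, each gene was also taken by its probe set with the highest mean. On this basis the 33 Hox genes had a median percentile of 52.1 in bulk, between the 71 olfactory and vomeronasal receptors at 38.2 and the 19 forebrain transcription factors at 74.9. The same medians after 4 rounds from 0.1 pg were 70.6 for the Hox genes, 53.4 for the receptors and 55.6 for the forebrain factors. Taking the highest probe set raises the rank of genes with several, so these values describe the lists and were not tested.

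The clusters differed in their ranks. In bulk the median percentile was 65.8 for the 16 Hoxa probe sets, 40.3 for the 11 of Hoxb, 58.0 for the 11 of Hoxc and 31.3 for the 10 of Hoxd. After 4 rounds from 0.1 pg these medians were 71.0 for Hoxa, 60.5 for Hoxb, 75.2 for Hoxc and 39.9 for Hoxd. Hoxd ranked lowest in 5 of the 6 amplified groups and in bulk, while on the 10 pg array after 2 rounds, which has many tied values, Hoxa and Hoxd were level at 40.4. Position along the clusters made less difference in bulk, in which the anterior paralogues 1 to 4 had a median percentile of 48.7, paralogues 5 to 8 one of 49.5 and paralogues 9 to 13 one of 42.3. In the same order these medians were 69.6, 51.1 and 52.1 from 0.1 pg after 2 rounds. They were 58.0, 56.2 and 58.1 from 10 pg after 4 rounds, so the part of position varied by group and was not tested.

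**Figure D2:**
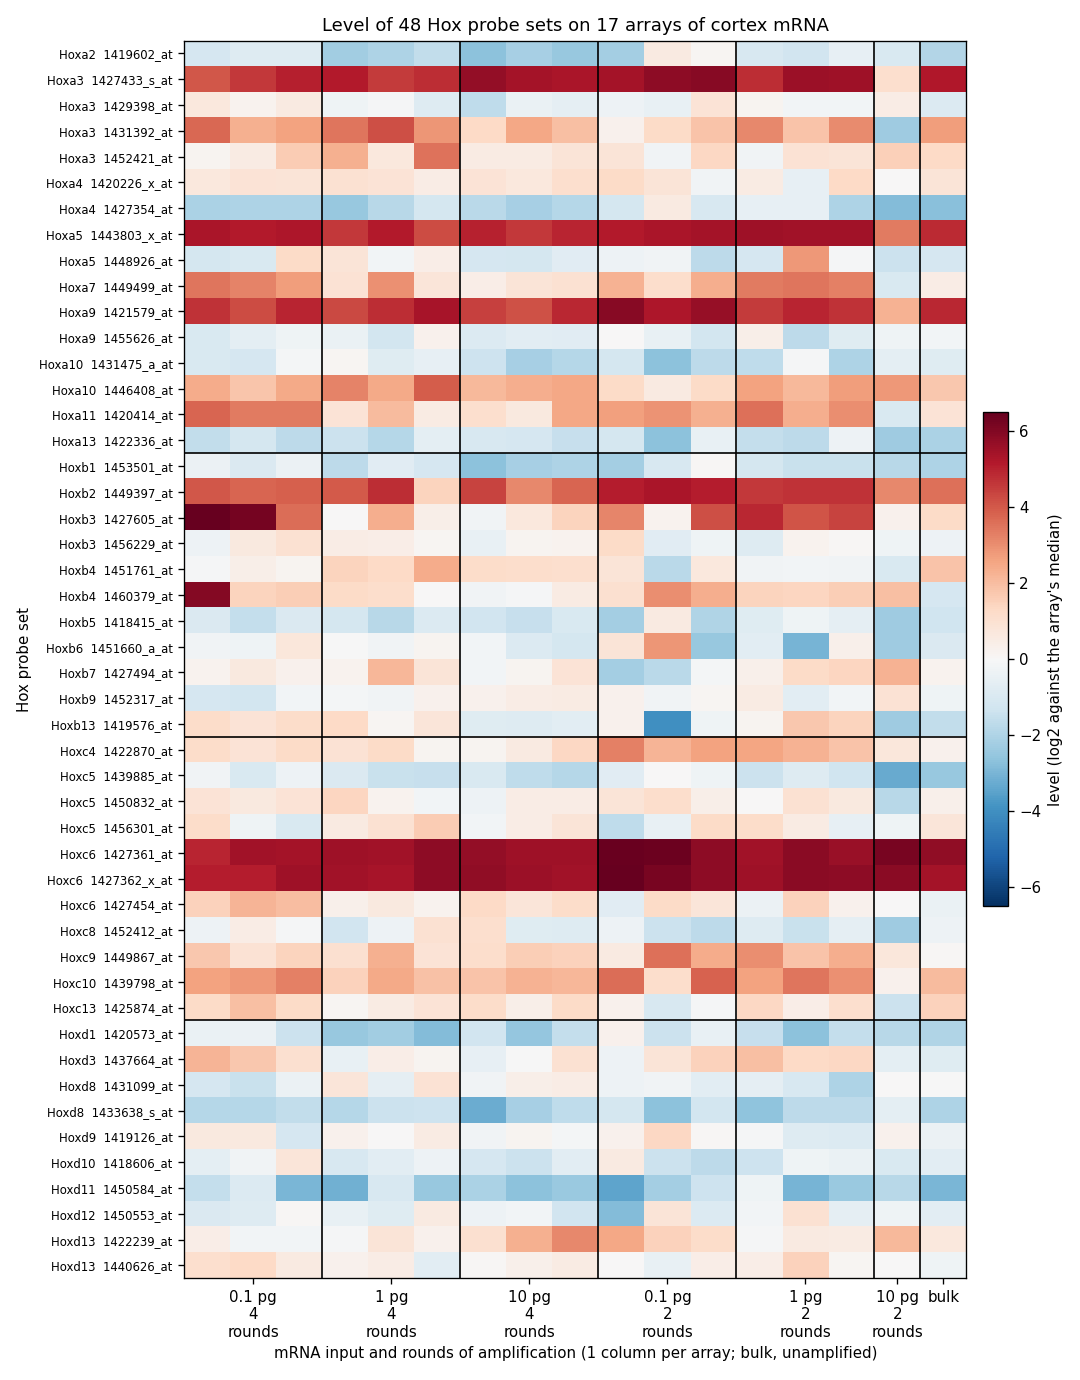
Level of the 48 Hox probe sets (rows, by cluster and number) on the 17 arrays (columns, by input and rounds), in log2 units against the array's own median; red is above and blue below that median. Hoxc6 1427361_at lies between 4.97 and 6.44 on all arrays, whereas Hoxb3 1427605_at spans -0.21 to 6.49.

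Some Hox probe sets kept to the same side of the array median throughout, and most did not. Of the 48 probe sets, 10 of 9 genes lay above the array median on all 17 arrays (20.8%, against 12.9% of all probe sets), 3 lay below it on all 17 (6.25% against 7.29%) and 35 took both sides. In bulk alone, 22 probe sets of 18 genes were above the median, which is 45.8% against 49.8% of all probe sets. The share above the median in bulk was thus a little under that of all probe sets.

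The Hox signals that were high throughout came from 5 probe sets of 4 genes, which lay over the 90th percentile on every array other than that of 10 pg after 2 rounds (10.4% of the Hox probe sets, against 3.79% of all). Hoxc6, which specifies motor neurons at the level of the forelimb, led them on probe set 1427361_at. Its levels were 4.97, 5.45 and 5.40 from 0.1 pg, 5.52, 5.47 and 5.79 from 1 pg and 5.73, 5.51 and 5.49 from 10 pg after 4 rounds. After 2 rounds they were 6.44, 6.39 and 5.82 from 0.1 pg, 5.45, 5.86 and 5.63 from 1 pg and 6.17 from 10 pg, against 5.76 in bulk. The arrays thus stayed within 1.47 log2 of each other, and the amplified groups differed from bulk by -0.01 (95% interval -1.0 to 0.98). The second Hoxc6 probe set, 1427362_x_at, was nearly the same on every array, with a median difference of 0.01 between them.

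Hoxa5, a gene needed for the respiratory tract, was also high, on probe set 1443803_x_at. Its level averaged 5.26 ± 0.08 from 0.1 pg, 4.67 ± 0.45 from 1 pg and 4.84 ± 0.21 from 10 pg after 4 rounds, and 5.29 ± 0.12 from 0.1 pg and 5.46 ± 0.04 from 1 pg after 2 rounds (SD, n = 3 each), against 4.86 in bulk. On the 10 pg array after 2 rounds it was 3.39, the lowest of the 17. Hoxa9, known for its role in blood progenitors, lay between 4.14 and 5.92 on 15 amplified arrays and at 2.23 on that of 10 pg after 2 rounds, against 4.90 in bulk. Hoxa3, which patterns the pharyngeal arches that form thymus and parathyroid, followed the same course, with 4.06 to 5.90 on 15 amplified arrays and 1.10 on that of 10 pg after 2 rounds, against 5.22 in bulk. No probe set of Hoxc6, Hoxa5, Hoxa9 or Hoxa3 passed the test (limma, Benjamini-Hochberg) in any of the 5 comparisons below.

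The other Hox probe sets that stayed above the array median on all 17 arrays were those of Hoxb2, Hoxa10, Hoxc10, Hoxc9 and Hoxc4. Hoxb2, a hindbrain gene needed for facial motor neurons, lay between 1.45 and 5.30 on the amplified arrays, against 3.60 in bulk. Hoxa10, known for patterning the lumbar region and the uterus, lay between 0.56 and 3.96 on probe set 1446408_at, against 1.77 in bulk. Hoxc10, a gene of lumbar motor neurons, had levels of 0.27 to 3.84, against 2.04 in bulk. Hoxc9, which sets the thoracic motor columns, was at 0.57 to 3.56 on the amplified arrays, against 0.08 in bulk.

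Hoxa3, Hoxa5, Hoxa9 and Hoxc6 each also had a probe set at a lower level. The 4 Hoxa3 probe sets were spread out, with 1427433_s_at above 1429398_at by a median of 5.65 log2 over the 17 arrays, above 1452421_at by 4.45 and above 1431392_at by 2.48. Of these, 1431392_at was itself at the 89.7 percentile in bulk and above the array median on 16 arrays. For Hoxa5, 1443803_x_at was above 1448926_at by 5.51, and for Hoxa9, 1421579_at was above 1455626_at by 5.35. For Hoxc6, 1427361_at was above 1427454_at by 5.05, and the probe sets 1429398_at, 1448926_at, 1455626_at and 1427454_at lay on both sides of the array median. Of the 5 high probe sets, 1 has the suffix that the maker gives to probes shared between transcripts (_s_at) and 2 have the suffix for probes that may bind other transcripts (_x_at), while Hoxa9 1421579_at and Hoxc6 1427361_at have neither. Whether the signal of any of them comes from the Hox transcript was not tested, since probe sequences were not analysed here.

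**Figure D3:**
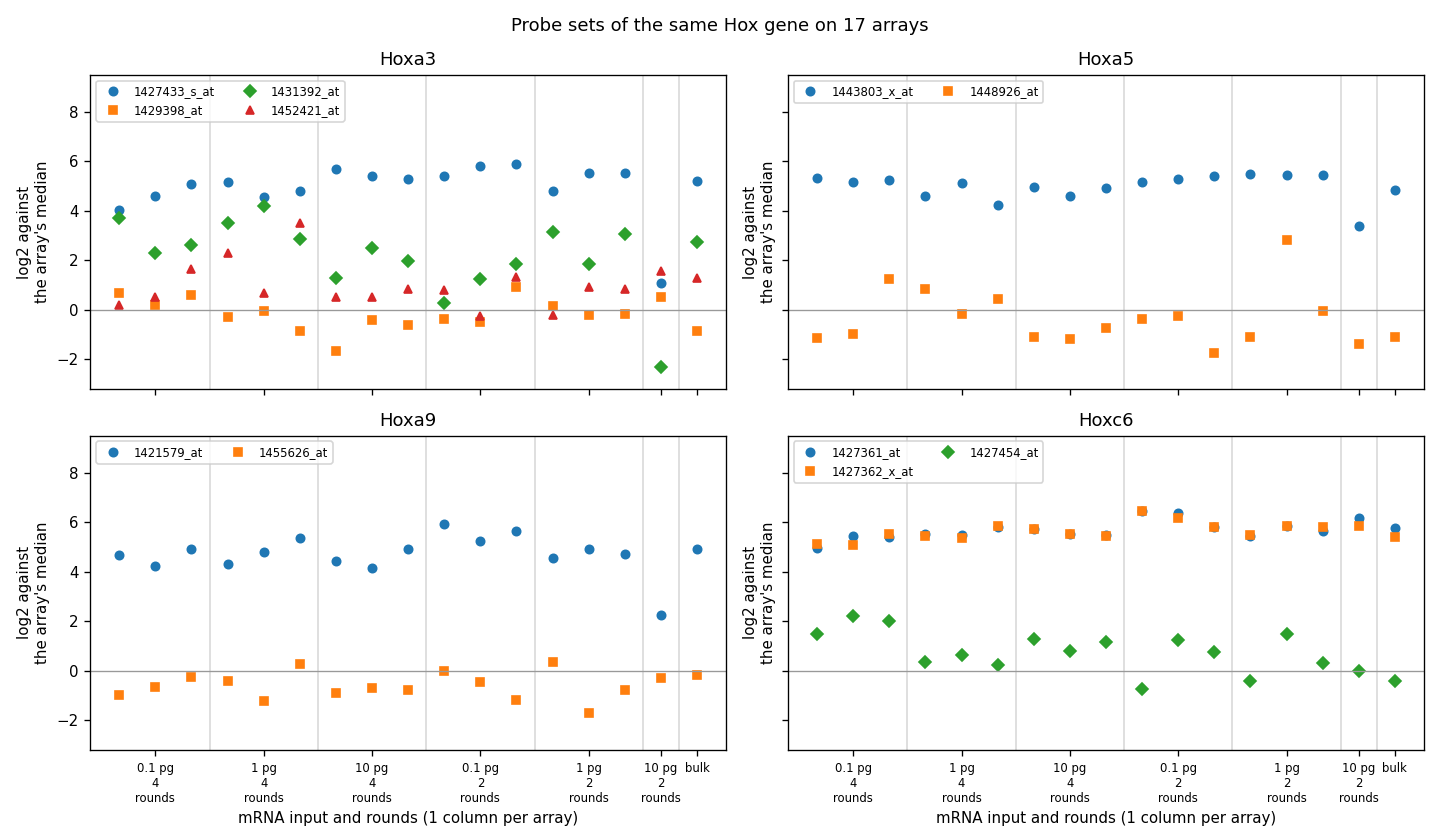
Level of every probe set of Hoxa3, Hoxa5, Hoxa9 and Hoxc6 on the 17 arrays, in log2 units against the array's own median; each symbol is a probe set and each column an array. The high probe set of Hoxa5 lies a median of 5.51 above the other, and those of Hoxc6 split into a pair that differs by a median of 0.01 and another probe set that lies 5.05 below.

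Probe sets of a gene also disagreed on how the arrays ranked. Over the 17 arrays Pearson's r between the probe sets of Hoxb4 was -0.62, between those of Hoxb3 0.14, between those of Hoxa9 -0.03 and between Hoxa5's 0.18. The Hoxc6 pair reached 0.90 and the pair 1439885_at and 1450832_at of Hoxc5 0.73. Among the 20 pairs, 13 had a negative r. These are correlations over arrays of 1 mRNA that differ in input, rounds and ties, and they are given as a description.

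At the other end, Hoxd11, a gene of the forearm and kidney, was below the array median on every array, from -3.42 to -0.28 on the amplified arrays, against -2.95 in bulk, where it lay at the 1.35 percentile. Hoxa13, which patterns hands and feet, was also below it throughout, with -2.67 to -0.31 on the amplified arrays, against -2.06 in bulk. Another such probe set was 1433638_s_at of Hoxd8, with -3.21 to -0.62, against -1.98 in bulk. In bulk these had company from Hoxa4 1427354_at at -2.69, Hoxc5 1439885_at at -2.47, Hoxb1 at -2.03, Hoxd1 at -1.97 and Hoxa2 at -1.93. The low end of the Hox probe sets therefore held both anterior members, such as those of the hindbrain genes Hoxa2 and Hoxb1, and posterior ones. Other probe sets of Hoxa4, Hoxc5 and Hoxd8 ranked higher in bulk. Hoxa4 1420226_x_at was at the 69.9 percentile, Hoxc5 1450832_at at 58.0, Hoxc5 1456301_at at 69.1 and Hoxd8 1431099_at at 49.5.

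The first comparison asked how amplification changes the Hox signal. No Hox probe set differed between the mean of the 6 amplified groups and bulk at an adjusted p under 0.05 (limma, 0 of 48), where 1.1% of all probe sets were called. At an unadjusted p under 0.05 limma had 3 of the 48, beside 6033 of all 45037. The methods' t-test could not be run against 1 bulk array. The median change of the Hox probe sets was 0.40, with 31 above 0, beside 0.10 for all probe sets (64.6% against 54.4% above 0). It was 0.47 without the 10 pg array after 2 rounds.

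The change went with the side of the array median on which a probe set lay in bulk. The 26 Hox probe sets below the array median in bulk had a median change of 0.53, with 20 above 0, beside 0.46 for all probe sets that began there. The 22 above it had a median change of 0.07, with 11 above 0, beside -0.37 for all that began there. The bulk array enters both the split and the change, so these medians are a description.

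The largest differences from bulk did not pass the test. Hoxb4 on probe set 1460379_at, a gene known for expanding blood stem cells, was at -0.24 to 5.96 on the amplified arrays, against -1.10 in bulk, and was thus higher on all 16. Its change was 2.67 ± 1.12 (SE), with an adjusted p of 0.306 in limma. Hoxc9 had a change of 1.51 and Hoxd3 one of 1.38, and both were also above bulk on all 16 amplified arrays (limma, adjusted p 0.431 and 0.399). Bulk is 1 array, and the share of all probe sets above it on all 16 was not counted, so nothing is read from this. In the other direction stood the second Hoxb4 probe set, 1451761_at, with -1.56, Hoxc13, a gene of hair follicles, with -1.10, and Hoxa3 1431392_at with -1.09. These changes weigh the amplified groups equally, so the single 10 pg array after 2 rounds counts as a group. On it Hoxb4 1451761_at was at -0.98, Hoxc13 at -1.38 and Hoxa3 1431392_at at -2.31. On the other amplified arrays Hoxc13 was at -1.05 to 1.935, against 1.47 in bulk, and Hoxa3 1431392_at at 0.30 to 4.21, against 2.735.

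The second comparison set the lowest against the highest input after 4 rounds. From 0.1 pg, 5 Hox probe sets were higher than from 10 pg and 1 was lower (limma, adjusted p under 0.05). That is 12.5% of the 48, where 8.86% of all probe sets were called in either direction. For the higher calls it is 10.4%, beside 4.04% of all probe sets, and for the lower 2.08% beside 4.83%. The median change was 0.44 with 34 of 48 above 0, beside 0.10 for all (70.8% against 53.8% above 0), and nothing particular to the Hox genes is read from these shares. Arrays of 0.1 and 10 pg also lay apart for probe sets that were not called, such as Hoxc13 and Hoxc6 1427361_at (limma, adjusted p 0.503 and 0.648). Here and in the comparisons below, the share of all probe sets without overlap was not counted. A lack of overlap is therefore given as a description.

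**Figure D4:**
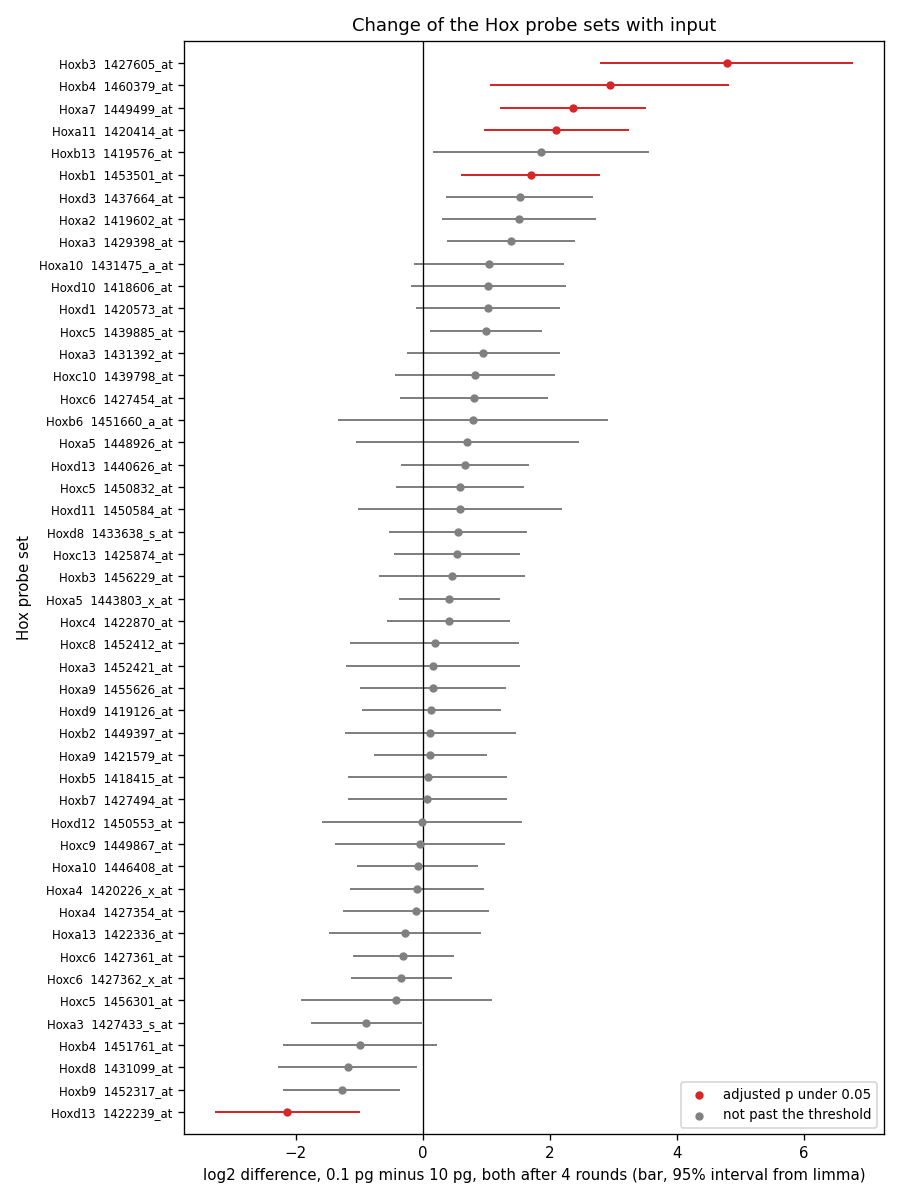
Log2 difference of each of the 48 Hox probe sets between 0.1 pg and 10 pg, both after 4 rounds (points, with 95% intervals from limma); red marks an adjusted p under 0.05. Hoxb3 1427605_at is highest at 4.78 and Hoxd13 1422239_at lowest at -2.13, and the intervals of most others include 0.

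Hoxb3, a hindbrain gene, changed most, on probe set 1427605_at. Its levels were 6.49, 6.20 and 3.61 from 0.1 pg, 0.02, 2.37 and 0.38 from 1 pg and -0.21, 0.69 and 1.47 from 10 pg, while bulk had 1.23. After 4 rounds, all 3 arrays of 0.1 pg were therefore above every array of 1 and 10 pg and above bulk. The difference between 0.1 and 10 pg was 4.78 ± 0.933 (SE; limma, adjusted p 0.00503), and it was past the threshold in each of the 15 fits that left out 1 array, with 4.26 to 5.70. It was lost under the methods' t-test (adjusted p 0.0842). The other Hoxb3 probe set, 1456229_at, differed by 0.46 (limma, adjusted p 0.628).

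Hoxa7, a gene of the thoracic region, had 3.45, 3.21 and 2.73 from 0.1 pg, 0.94, 2.95 and 0.80 from 1 pg and 0.44, 0.83 and 1.00 from 10 pg, with 0.46 in bulk. The arrays of 0.1 and 10 pg did not overlap, and 1 array of 1 pg reached the range of 0.1 pg. The difference was 2.37 ± 0.537 (SE; limma, adjusted p 0.0119). It was lost without replicate 1 (adjusted p 0.0602) or replicate 2 of 0.1 pg (0.0507) and without replicate 1 of 10 pg (0.0636).

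Hoxa11, needed for the forearm and kidney, had 3.79, 3.39 and 3.39 from 0.1 pg, 0.89, 2.07 and 0.52 from 1 pg and 1.11, 0.66 and 2.50 from 10 pg, with 0.88 in bulk. Again, among the arrays after 4 rounds, the lowest input was above the rest without overlap. The difference between 0.1 and 10 pg was 2.10 ± 0.534 (SE; limma, adjusted p 0.0224). Leaving out replicate 1 or 2 of either input raised the adjusted p to between 0.0659 and 0.112.

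Hoxb1, which defines a hindbrain segment, stayed below the array median at both inputs, with -0.39, -0.93 and -0.40 from 0.1 pg and -2.67, -2.15 and -2.0 from 10 pg. Its bulk level of -2.03 lay within the range of the 10 pg arrays. The difference was 1.70 ± 0.509 (SE; limma, adjusted p 0.0473), and only 4 of 15 fits without 1 array held the call, with adjusted p from 0.0175 to 0.179.

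Hoxb4 on 1460379_at had 5.96, 1.47 and 1.60 from 0.1 pg and -0.24, -0.08 and 0.51 from 10 pg. Replicate 1 of 0.1 pg was far above the others. The difference of 2.95 ± 0.882 (SE; limma, adjusted p 0.0473) became 1.47 without that array (adjusted p 0.184). The second probe set of Hoxb4, 1451761_at, had a negative difference, -0.99, that did not pass (limma, adjusted p 0.288).

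Hoxd13, which patterns the digits, was the 1 Hox probe set that fell, on 1422239_at. It had 0.45, -0.18 and -0.20 from 0.1 pg and 1.03, 2.32 and 3.10 from 10 pg, with 0.70 in bulk between them. The difference was -2.13 ± 0.531 (SE; limma, adjusted p 0.0204), and it did not pass without replicate 2 or 3 of either input, with adjusted p between 0.0620 and 0.0820. The other Hoxd13 probe set, 1440626_at, had a difference of 0.67 (limma, adjusted p 0.397). Hoxb3, Hoxb4 and Hoxd13 were thus each called on 1 of their 2 probe sets.

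The next differences by size were outside the threshold. They were 1.86 for Hoxb13, a gene of the prostate, and 1.53 for Hoxd3, needed for the first neck vertebrae (limma, adjusted p 0.155 and 0.0871). On the negative side they were -1.27 for Hoxb9 and -1.18 for Hoxd8 1431099_at (adjusted p 0.0736 and 0.158). Under the methods' t-test, Hoxa7 kept its call (adjusted p 0.0420) and the other 5 did not, with adjusted p of 0.0596 for Hoxb1, 0.0842 for Hoxb3, 0.113 for Hoxa11, 0.131 for Hoxd13 and 0.273 for Hoxb4. The count of 6 dropped to 2 without replicate 1 or 2 of 0.1 pg, and without replicate 1 or 2 of 10 pg.

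The third comparison set 0.1 against 1 pg, averaged over 2 and 4 rounds. It shares the arrays of 0.1 pg after 4 rounds with the one before. Here 1 of the 48 Hox probe sets was called, higher from 0.1 pg (2.08%, where limma called 1.24% of all probe sets in either direction and 0.255% as higher), and the median change was 0.12, beside 0.05 for all. The gene was Hoxd1, known in mice for pain-sensing neurons.

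Hoxd1 had -0.43, -0.40 and -1.38 from 0.1 pg and -2.48, -2.27 and -2.84 from 1 pg after 4 rounds. After 2 rounds it had 0.30, -1.38 and -0.48 from 0.1 pg and -1.48, -2.67 and -1.55 from 1 pg, with -1.97 in bulk. The arrays of 0.1 pg were higher without overlap, by a narrow margin. The difference was 1.59 ± 0.372 (SE; limma, adjusted p 0.0475), and it lost the call in 13 of the 15 fits that left out 1 array, with adjusted p up to 0.126. Hoxb4 1460379_at and Hoxb3 1427605_at came next, with 1.45 and 1.29 (limma, adjusted p 0.282 and 0.376). The largest negative differences were -1.53 for Hoxb7, -1.22 for Hoxa10 1446408_at and -1.10 for Hoxa3 1431392_at (limma, adjusted p 0.0871, 0.0677 and 0.194).

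The fourth comparison set 4 against 2 rounds, averaged over 0.1 and 1 pg. Of the 48 Hox probe sets 1 was called, lower after 4 rounds (2.08%, where limma called 3.91% of all probe sets in either direction and 1.91% as lower). The median change was 0.08, beside -0.05 for all. The gene was Hoxc4, of the cervical and upper thoracic region.

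Hoxc4 had 1.19, 0.86 and 1.25 from 0.1 pg and 0.95, 1.23 and 0.20 from 1 pg after 4 rounds, against 3.28, 2.21 and 2.61 from 0.1 pg and 2.56, 2.27 and 1.87 from 1 pg after 2 rounds. At these inputs every array after 4 rounds was below every array after 2. The 10 pg input, which the comparison leaves out, had 0.17, 0.57 and 1.34 after 4 rounds, against 0.72 on its single array after 2 rounds, so there the rounds overlapped. Bulk was at 0.27. Hoxc4 fell by 1.52 ± 0.318 log2 (SE; limma, adjusted p 0.0180), by 1.60 from 0.1 pg and by 1.44 from 1 pg. The call held in all 15 fits without 1 array, and it was lost under the methods' t-test (adjusted p 0.0894). That test called 3 of all 45037 probe sets in this comparison, so the loss says little about Hoxc4 itself. The next differences did not pass (limma, adjusted p from 0.0759 to 0.309). They were -1.27 for Hoxb2 and -1.12 for Hoxa4 1427354_at, and 1.29 for Hoxa3 1431392_at, 1.10 for Hoxb4 1451761_at and 1.01 for Hoxb13.

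The last comparison asked whether the effect of rounds was the same at both inputs. For 2 of the 48 Hox probe sets it differed between 0.1 and 1 pg (4.17%, where limma called 3.59% of all probe sets in either direction). Both had a positive difference, as did 2.46% of all probe sets by the same test. The effect of 4 against 2 rounds on Hoxb3 1427605_at was 2.90 at 0.1 pg and -3.54 at 1 pg. The difference of these effects was 6.44 ± 1.32 (SE; limma, adjusted p 0.0179). For Hoxa7 the effects were 1.21 at 0.1 pg and -1.81 at 1 pg, a difference of 3.02 ± 0.759 (SE; limma, adjusted p 0.0391).

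The values behind this crossing were uneven. After 2 rounds Hoxb3 had 3.19, 0.21 and 4.21 from 0.1 pg and 4.92, 4.10 and 4.37 from 1 pg, so that the highest levels lay at 0.1 pg after 4 rounds and at 1 pg after 2. Hoxa7 had 2.26, 1.12 and 2.37 from 0.1 pg and 3.37, 3.46 and 3.28 from 1 pg after 2 rounds. The Hoxb3 call was lost without replicate 1 or 2 of 0.1 pg after 4 rounds, replicate 1 of 1 pg after 4 rounds or replicate 1 of 1 pg after 2 rounds, with adjusted p up to 0.0595. Hoxa7 held its call in 4 of the 15 such fits.

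Other Hox probe sets had effects of opposite sign at the 2 inputs without passing the test. Hoxb13 had the largest difference of these, 2.81, with effects of 2.41 at 0.1 pg and -0.39 at 1 pg (limma, adjusted p 0.168). For Hoxc13 the effects were 1.75 and -0.445 (limma, adjusted p of the difference 0.0711). The effects of rounds were 0.90 at 0.1 pg and -1.82 at 1 pg for Hoxa11, and 1.00 and -1.48 for Hoxd3 (limma, adjusted p of the difference 0.0557 and 0.0795). Across the 17 arrays, Pearson's r among Hoxb3, Hoxa7, Hoxa11 and Hoxd3 was 0.78 to 0.88. Hoxa5 1443803_x_at had an r of 0.88 with Hoxa11, and 0.83 without the 10 pg array after 2 rounds. These probe sets were picked for their likeness and come from 3 clusters, and the r is given as a description. The largest negative differences of effects, -2.15 for Hoxd8 1431099_at, -1.73 for Hoxd13 1422239_at and -1.67 for Hoxb4 1451761_at, did not pass (limma, adjusted p from 0.102 to 0.241).

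**Figure D5:**
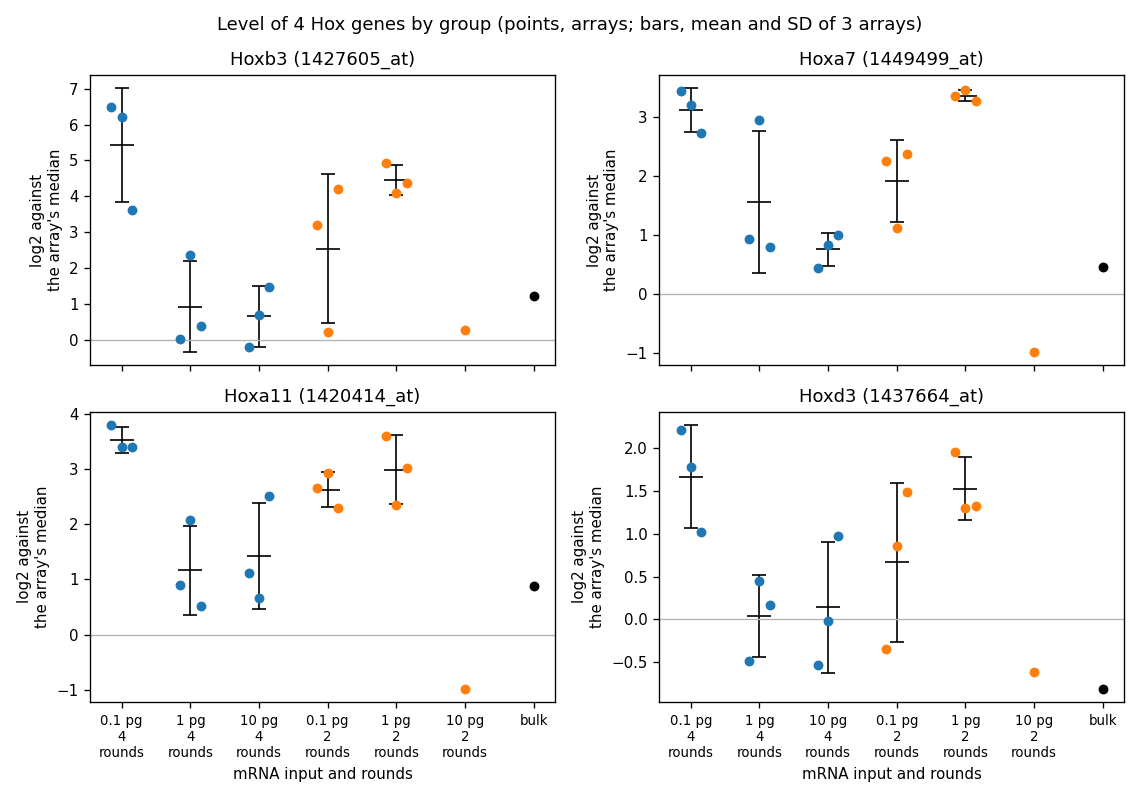
Level of Hoxb3, Hoxa7, Hoxa11 and Hoxd3 in log2 units against the array's own median, by input and rounds (blue, 4 rounds; orange, 2 rounds; black, bulk); points are arrays, and bars are the mean and SD of 3 arrays. In each panel the group means are highest at 0.1 pg after 4 rounds and 1 pg after 2 rounds, such as 5.43 and 4.46 for Hoxb3, against 1.23 in its bulk array.

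Control probe sets for the ends of transcripts moved with input beside these calls. For b-actin, the 3′ end minus the 5′ end gave -0.81 ± 0.16 from 0.1 pg, 0.19 ± 0.33 from 1 pg and 1.13 ± 0.55 from 10 pg after 4 rounds (SD, n = 3 each), with 1.09 in bulk. After 2 rounds the value was -1.55 ± 1.81 from 0.1 pg and 0.41 ± 1.02 from 1 pg (SD, n = 3 each), and 3.29 on the 10 pg array. For Gapdh it was 3.71 ± 0.03 from 0.1 pg, 4.03 ± 0.37 from 1 pg and 4.73 ± 0.21 from 10 pg after 4 rounds (SD, n = 3 each). After 2 rounds it was 3.45 ± 0.78 from 0.1 pg and 4.27 ± 1.28 from 1 pg (SD, n = 3 each) and 3.84 on the 10 pg array, so that every group mean was above the 2.05 of bulk. The part of these values in the Hox results was not tested.

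The genes that work with the Hox proteins and upstream of them were measured alongside, each by its highest-mean probe set. Of 8 measured cofactors, Pbx2, a homeodomain partner of Hox proteins, was at -1.30 from 0.1 pg, against 4.83 from 10 pg after 4 rounds (log2 difference -6.13; limma, adjusted p 0.000155). Pknox1, another partner, was at 4.36 from 0.1 pg, against 1.69 from 10 pg (2.67; adjusted p 0.00759). The cofactors had a median percentile of 74.9 in bulk and thus stood above the Hox genes at 52.1. Among 6 ParaHox genes, relatives of the Hox genes, Cdx4 and Cdx1 rose at 0.1 against 10 pg, by 2.43 and 2.05 (limma, adjusted p 0.0311 and 0.0480).

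Polycomb subunits, which keep Hox clusters silent, had a median percentile of 74.6 in bulk, and 22 of the 27 measured were above the bulk median. At 0.1 against 10 pg, 1 changed, Cbx6, a chromodomain subunit, which had a log2 difference of -3.0 (limma, adjusted p 0.0340). Between 4 and 2 rounds Eed and Pcgf3 fell by 1.26 and 1.39 (limma, adjusted p 0.0266 and 0.0444). Ezh2, the methyltransferase of Polycomb complex PRC2, differed in the effect of rounds between 0.1 and 1 pg by 2.95 (adjusted p 0.0420). Of 13 measured retinoic acid receptors and enzymes, the inducers of anterior Hox genes and their controls, 1 passed at 0.1 against 10 pg, the degrading enzyme Cyp26b1, by -4.03 (limma, adjusted p 0.0113).

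The lists that describe where a tissue lies along the axis had different medians. At 0.1 against 10 pg after 4 rounds, 6 of 19 forebrain transcription factors were lower, among them Neurod6 by -4.42, Pou3f3 by -3.92 and Dlx2 by -3.74, and 1, Otx1, was higher by 1.81 (limma, adjusted p 0.00266 to 0.0465), where 4.83% of all probe sets were lower and 4.04% higher. Their median change was -0.08, and that of the 10 pan-neuronal markers, of which 5 were lower, was -2.52. Of the 11 measured markers of hindbrain and spinal cord, Lbx1 was higher, by 3.06 (adjusted p 0.00512), and the list's median was 0.56. The 71 olfactory and vomeronasal receptors, which cortex is not known to use widely, had 3 higher (limma), a share near that of all probe sets, with a median of 0.41 close to the 0.44 of the Hox probe sets.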

How the data were processed

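Arrays of amplified and bulk cortex mRNA were grouped by the input and the rounds in their labels. The authors summarized probe sets with RMA 2.0 and deposited log2 values, from 1.56 to 15.8, with array medians of 5.64 to 6.01. Median centering and scaling by the distance between the 10th and 90th percentiles, which the methods describe, were applied here and multiplied by the mean range of 4.63. Of 45101 probe sets, 64 controls were left out, and 34945 carry 1 symbol, 932 several and 9160 none. RefSeq (GRCm38.p6) served for names and neighbours, and no coordinates are given, because the files name no build. All 17 columns had a sample, and 0 were without. No 2 arrays shared more than 0.926% identical values.

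The test was that of limma 3.58.1, run under R 4.3.3 (7 group means, contrasts, eBayes, 16.4 total degrees of freedom) with Benjamini-Hochberg adjustment over all 45037 and a threshold of 0.05, after a test on simulated data. Other values came from python 3.11.15, numpy 2.4.6 and pandas 2.3.3, and figures from matplotlib 3.10.9. Alternatives were other scalings (deposited, median-centred, quantile), a filter on dim probe sets, the paper's false discovery rate, the compared groups alone, the methods' t-test, the replicate number as a block, genes in place of probe sets, and each array left out. The methods' t-test was not run where a side has 1 array or for the difference in the effect of rounds.

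Named genes are Hox probe sets past the threshold, the 3 largest changes in each direction per comparison, Hox genes above the bulk median or with probe sets that disagree, and list members that passed or changed most. The members, lists and tests were chosen with earlier results of these data known.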

Additional observations from a re-analysis of the deposited data

Results flagged for a closer look

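For Hoxb3 on probe set 1427605_at, the effect of 4 against 2 rounds differed between 0.1 and 1 pg by the test of the difference itself, with 6.44 on the log2 scale (limma, adjusted p 0.0179). The group means were 5.43 at 0.1 pg and 0.92 at 1 pg after 4 rounds, against 2.53 at 0.1 pg and 4.46 at 1 pg after 2 rounds. The same test singled out Hoxa7, with a difference of 3.02 (adjusted p 0.0391) and means of 3.13 at 0.1 pg and 1.56 at 1 pg after 4 rounds, against 1.92 at 0.1 pg and 3.37 at 1 pg after 2 rounds. A group has at most 3 arrays, so no search for a stray array within a group was made.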

How the results depend on the processing

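No Hox result turned its direction past the threshold in any alternative run. Against bulk, 0 Hox probe sets were called in all 23 alternatives, and the median change moved to 0.63 on the deposited values, which are not centred. At 0.1 against 10 pg after 4 rounds the count was 6, with 0 at a false discovery rate of 0.1%, the one the paper used, and 2 to 8 with 1 array left out. For 0.1 against 1 pg it was 2 with median centering alone or each gene by its highest-mean probe set, and 0 with dim probe sets removed, at the rate of 0.1%, with the compared groups alone and under the methods' t-test, and 0 to 1 with 1 array left out. The filter on dim probe sets took out Hoxd1 itself. In 3 of the fits without 1 array the 1 call was another probe set: Hoxa10 1446408_at, lower, without replicate 2 of 1 pg after 4 rounds (-1.41), Hoxb7, lower, without replicate 3 of 0.1 pg after 2 rounds (-1.83), and Hoxa2, higher, without replicate 1 of that group (1.15). For 4 against 2 rounds it was 0 at the rate of 0.1% and under the methods' t-test, 2 with each gene by the median of its probe sets, and 1 to 3 with 1 array left out, and the median change was -0.24 by the highest-mean probe set. For the difference in the effect of rounds it was 0 at the rate of 0.1%, 1 with the compared groups alone, and 0 to 4 with 1 array left out. With each gene as the median over its probe sets, the median percentile was 37.9 on the 10 pg array after 2 rounds, against 51.2 in bulk. The cause of these shifts was not tested.

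At 0.1 against 10 pg the methods' t-test had 16 Hox probe sets at an unadjusted p under 0.05, 4 after Benjamini-Hochberg adjustment at 0.05 and 0 at the paper's rate. Of these 4, Hoxa7 was among the 6 called by limma, and the other 3 (Hoxb13, Hoxa2 and Hoxb4 1451761_at) were not. It had 4 at an unadjusted p under 0.05 for 0.1 against 1 pg and 10 for 4 against 2 rounds. Its unadjusted counts over the whole array are not given, so the 16, 4 and 10 lack a background. Of all 45037 probe sets it called 1580 after adjustment at 0.1 against 10 pg. It called 0 for 0.1 against 1 pg and 3 for 4 against 2 rounds. With a false discovery rate of 0.1% it called 0 in each comparison. Where the whole array had 0, the 0 of the Hox probe sets says nothing particular to them. Removing dim probe sets kept 36 of the 48. Arrays with the same replicate number did not deviate together (mean r -0.01, against 0.00 for other pairs), so the numbers do not pair them. With the replicate block, 4 Hox probe sets were called at 0.1 against 10 pg, without Hoxb1 and Hoxb4, and 1 for the difference in the effect of rounds, without Hoxa7. No paired analysis was possible for the amplified groups against bulk because bulk is a single array. The number of arrays limits the precision of every value, and signal over background was not measured.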

Other observations

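Transcripts of the Hox clusters outside the single-symbol rule were looked at after the values of the Hox genes were known. The antisense transcript Hoxb5os lay between -1.38 and 4.71 on the amplified arrays, against -1.61 in bulk. Hoxa11os had 2 probe sets that differed as those of the Hox genes did, with 1452400_a_at at 0.71 and 1457646_at at -3.33 in bulk. Of the 2 probe sets shared by Hoxd4 and Hoxd3, 1421537_at was at 0.57 to 3.93 on the amplified arrays, against 1.82 in bulk, and 1450209_at at -3.15 to -0.34, against -2.06 in bulk. The probe set shared by Hoxb8 and Hoxb7 lay at -0.74 to 1.60, against 0.27 in bulk.

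Genes beside the clusters in RefSeq, which are not Hox genes, were read by their highest-mean probe set. Lnpk, a gene of endoplasmic reticulum junctions beside Hoxd, was at -2.75 from 0.1 pg, against 5.18 from 10 pg after 4 rounds (log2 difference -7.92; limma, adjusted p 4.48e-05), with -4.38 between 0.1 and 1 pg (adjusted p 0.000648). Calcoco1, beside Hoxc, was at 1.76 from 0.1 pg, against 4.51 from 10 pg, and did not pass (-2.75; limma, adjusted p 0.0526). Cbx5, a heterochromatin protein gene beside Hoxc, was at 1.73 from 0.1 pg, against 3.79 from 10 pg after 4 rounds (log2 difference -2.06; limma, adjusted p 0.0351), and its effect of rounds differed by -3.87 between 0.1 and 1 pg (adjusted p 0.0197). Smug1, a DNA repair gene beside the same cluster, differed by 1.37 between 4 and 2 rounds (adjusted p 0.0420). Evx1 and Evx2, the homeobox genes at the ends of Hoxa and Hoxd, changed by -0.26 and 0.60 at 0.1 against 10 pg, and neither passed (limma, adjusted p 0.783 and 0.402).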
